A study of Homo sapiens with 12 samples.

Results

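The histone genes of A673 cells were described in poly(A)-selected RNA-Seq libraries, in which most histone mRNAs should be poorly captured. Members were all gene symbols of the count table that begin with HIST1H to HIST4H, H2AF, H3F3 or H1F, which gave 91 of 26334 symbols. They comprised 70 coding genes of the replication-dependent class (here the HIST genes), 16 coding genes of the replacement class (H2AF, H3F3 and H1F genes) and 5 pseudogenes or antisense RNAs that were kept out of both classes. A673 is an established Ewing sarcoma cell line, and the cells were the derivative labelled shA673-1c, grown throughout with Blasticidin and zeocyn. All 12 sample labels also carry the letters CTL, at every time point. All cells received 5 µM actinomycin D, a drug that blocks transcription, for 0, 1, 2 or 4 h, and the 0 h cells served as the control. There were 3 biological replicates per time point, hence 12 libraries, and all of them came from a single derivative of a single cell line.

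Histones package DNA into nucleosomes. The replication-dependent genes supply the core histones H2A, H2B, H3 and H4 and the linker histone H1 in S phase, when new DNA is packaged. Their mRNAs are the known exception among metazoan mRNAs: they end after a conserved stem-loop that is bound by SLBP, and carry no poly(A) tail. Replacement variants are made throughout the cell cycle from spliced or unspliced genes whose mRNAs are polyadenylated in the usual way. Some HIST genes are also known to give a longer, polyadenylated transcript when the stem-loop end is not used, and H2AFX can give both kinds of mRNA.

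The 3′ ends of the transcripts show this division. In the GENCODE annotation (version 44, GRCh38), all 70 HIST genes held a stem-loop after the stop codon, found as GGNNNTTNNNANNNCC on the transcript strand with at least 5 of 6 stem positions paired. In 69 of them it lay within 20 bases of the end of an annotated transcript. Among 19960 other coding genes, 3.49% of canonical transcripts held the same letters and 4 transcripts held them at the end. These shares follow another rule: all annotated transcripts of the HIST genes were searched. For the other genes only the canonical transcript was searched, over its whole length. The element is shown for the 4 HIST genes with the most counts, for HIST2H2BE, whose element lies elsewhere in the transcript, for 2 HIST genes that were almost absent, and for H2AFX, the only replacement gene that held it. Capitals mark the 16-base stem and loop, and lower case letters the bases beside it.
HIST1H2BK (chr6:27146366-27146381, minus strand): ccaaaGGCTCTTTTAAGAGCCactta
HIST1H2BD (chr6:26158587-26158602, plus strand): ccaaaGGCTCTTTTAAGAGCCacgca
HIST1H1C (chr6:26055744-26055759, minus strand): caaaaGGCTCTTTTCAGAGCCacca
HIST1H2AC (chr6:26124669-26124684, plus strand): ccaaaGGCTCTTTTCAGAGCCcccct
HIST2H2BE (chr1:149886188-149886203, minus strand): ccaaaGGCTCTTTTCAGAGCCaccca
HIST1H3B (chr6:26031597-26031612, minus strand): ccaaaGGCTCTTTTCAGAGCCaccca
HIST1H4C (chr6:26104317-26104332, plus strand): ccaaaGGCCCTTTTCAGGGCCgctca
H2AFX (chr11:119094898-119094913, minus strand): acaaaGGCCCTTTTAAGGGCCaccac

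The element did not separate the HIST genes with counts from those without. The form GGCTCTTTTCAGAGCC was shared by 40 HIST genes, among them HIST1H1C with 531 counts in all 12 libraries together and HIST1H3B with 10. The form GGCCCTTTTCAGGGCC was found in 10 genes, all of which encode H4. HIST2H2BE differed from the others in position: its stem-loop lay 1729 bases before the end of its annotated transcript, which ends instead after a poly(A) signal, as does the transcript of H2AFX, 1024 bases past its stem-loop. The last 30 bases of these transcripts are shown beside those of a longer, non-canonical HIST1H2BD transcript and of the most abundant replacement genes. The poly(A) signal is in capitals.
HIST2H2BE (chr1:149884459-149884488, minus strand): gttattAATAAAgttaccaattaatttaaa
H2AFX (chr11:119093874-119093903, minus strand): attttATTAAAggattgttttttttttaaa
HIST1H2BD (chr6:26171320-26171349, plus strand): taattAATAAAatctgcggagaattgtaaa
H2AFZ (chr4:99948088-99948117, minus strand): ggataagttcAATAAAggtcatatcccaaa
H3F3B (chr17:75776434-75776463, minus strand): atgagactaaAATAAAatttttgaagttaa

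A transcript of this second kind, with AATAAA or ATTAAA starting 10 to 40 bases before its end and no stem-loop at the end, was annotated for 15 of the 16 replacement genes and for 16 of the 70 HIST genes. Among HIST genes it was annotated for 5 of the 7 that passed the count filter used below (HIST1H2AC, HIST1H2BC, HIST1H2BD, HIST2H2BE and HIST3H2A) and for 11 of the 63 that did not. The median HIST gene with such a transcript had 36 counts in the 12 libraries together, and the median HIST gene without one had 3.5. The sums went the other way: the 54 genes without one held 4464 of 6709 HIST counts, and the 16 with one held 2245. HIST1H2BK and HIST1H1C were exceptions, with 3495 and 531 counts and no such transcript in this annotation. These annotations describe the genes, and which 3′ end each counted read came from is not known from gene counts.

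HIST mRNAs made up a small part of these libraries. At 0 h the 70 HIST genes together held 0.00521% ± 0.000423 of all counts (SD, n = 3), between 508 and 559 counts per library. The 16 replacement genes held 0.200% ± 0.00411 (n = 3), between 19242 and 21508 counts. Replacement counts therefore exceeded HIST counts 38.5-fold ± 3.33 (SD, n = 3) at 0 h, and the lowest ratio in any of the 12 libraries was 28.8.

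**Figure D1:**
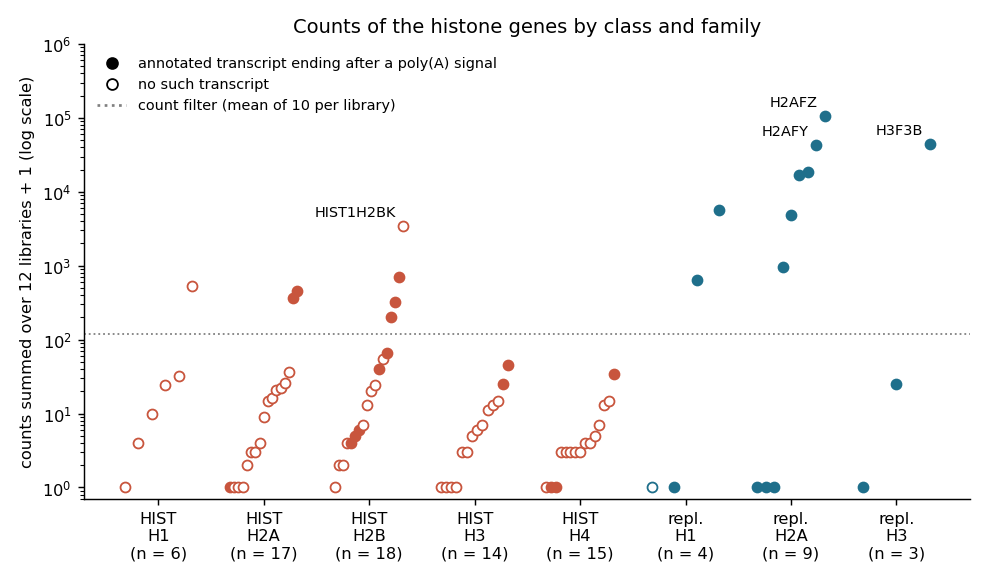
Counts of each coding histone gene summed over the 12 libraries, plus 1, on a log axis, by class and protein family. Points are genes, filled where the annotation holds a transcript that ends after a poly(A) signal, and the dotted line marks a mean of 10 counts per library. Only 7 of 70 HIST genes (H1, H2A and H2B) lie above the line, led by HIST1H2BK at 3495 counts, while 9 of 16 replacement genes (repl.) do, led by H2AFZ at 105436.

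Counts within the HIST class were concentrated in few genes. HIST1H2BK, which encodes an H2B, alone gave 52.1% of HIST counts, and the 7 genes that averaged 10 or more counts per library gave 90.2%. The H2B genes gave 73.7% of HIST counts, H2A genes 14.3%, H1 genes 8.90%, H3 genes 1.85% and H4 genes 1.27%. The HIST genes of the core histones H3 and H4 thus gave few counts. The 14 HIST H3 genes together gave between 5 and 15 counts per library, and the 15 HIST H4 genes between 4 and 15. Some of these genes consist almost wholly of repeated sequence, as described below. No H3 or H4 gene of this class passed the filter. The highest of them were HIST1H3E with 45 and HIST1H4H with 33 counts over all libraries, both of which have an annotated poly(A)-signal transcript. Of the 70 genes, 28 had 1 to 9 counts in all and 13 had none. The 63 genes below the filter gave between 31 and 83 counts per library together.

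Among replacement genes, H2AFZ, the main gene of the H2A.Z variant that marks promoters, gave 43.8% of the counts. H3F3B, which encodes the replacement form of H3 placed at transcribed genes, gave 18.6%, and H2AFY, the first macroH2A gene, gave 17.8%. H2AFV, the second H2A.Z gene, and H2AFY2, the second macroH2A gene, gave 7.77% and 6.98%. The linker histone genes H1FX and H1F0 gave 2.35% and 0.266%, H2AFX, whose protein is phosphorylated at DNA breaks, 2.03%, and H2AFJ 0.401%. H3F3C had 24 counts in all. The germline variants H1FNT, H1FOO, H2AFB1, H2AFB2 and H2AFB3, and also H3F3A, were at 0 in all 12 libraries.

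H3F3A is known to be used broadly and encodes the same protein as H3F3B, so its 0 was set against how much of each gene can be told apart from the rest of the genome. Of the 75-base windows of the H3F3A transcript, 91.3% also occurred elsewhere in GRCh38, against 5.51% for H3F3B. Of the 11 coding members with at least 90% of windows repeated, 9 had no count (H3F3A, H2AFB2, H2AFB3, HIST2H2AA3, HIST2H2AA4, HIST2H3A, HIST2H3C, HIST2H4A and HIST2H4B) and the highest had 4. Of the 66 with at most 10% repeated, 9 had no count, among them the testis genes HIST1H2AA, HIST1H2BA and HIST3H3. A count of 0 in 121373427 counts allows a level of up to 0.0247 counts per 1000000 counts (3 counts, counting error only). For the 9 genes made of repeated sequence that limit applies to reads that could be assigned to them, since how reads with several matches were counted is not stated. The part of repeated sequence in the other low counts was not tested. HIST1H2BK had 39.0% of windows repeated, so reads of other H2B genes could be among its counts or missing from them.

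**Figure D2:**
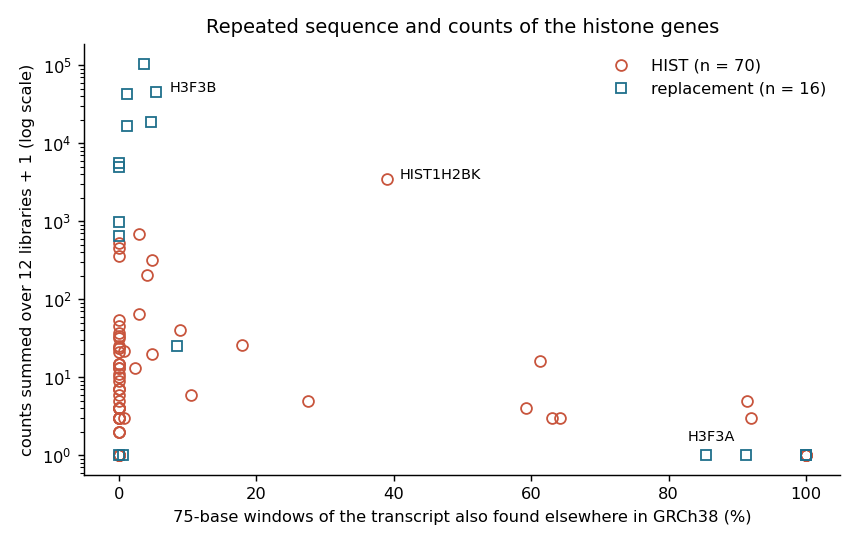
Each point is a coding histone gene, 70 HIST genes (circles) and 16 replacement genes (squares); the x axis gives the share of 75-base windows of its transcript also found elsewhere in GRCh38, the y axis its counts in 12 libraries plus 1 on a log scale. Genes above 90% repeated sequence reach at most 4 counts, H3F3A among them at 0, whereas HIST genes with little repeated sequence also lie near the bottom.

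Levels were compared between genes as counts per 1000000 counts and per kb of the canonical transcript at 0 h (mean ± SD, n = 3). H2AFZ was highest with 982 ± 25.9, which was 6.14-fold above the next gene. H2AFY (160 ± 4.48) and H3F3B (147 ± 9.04) followed, and the 3 libraries of one overlapped those of the other. H2AFY2 stood at 65.9 ± 3.99, HIST1H2BK at 51.4 ± 4.77 and H2AFV at 46.2 ± 1.62, and the last pair overlapped. HIST1H2BK was the only HIST gene within the range of the abundant replacement variants. H1FX (29.0 ± 2.98) and H2AFX (28.0 ± 3.09) overlapped, as did H2AFJ (10.8 ± 1.05) and HIST1H2BD (10.2 ± 1.21). HIST1H2AC, HIST3H2A, HIST1H1C and HIST1H2BC lay between 7.22 and 3.03, with H1F0 at 2.73 ± 0.336 and HIST2H2BE last at 1.27 ± 0.339. This scale depends on the transcript assumed: with the lengths of the transcripts that end after a poly(A) signal, H2AFY came to 379 and HIST1H2AC to 2.25. H2AFZ was then 2.59-fold above the next gene, and H2AFY no longer overlapped H3F3B. HIST1H2BK no longer overlapped H2AFV (36.7), nor H2AFJ HIST1H2BD (6.29), while H1FX and H2AFX still overlapped.

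Library totals ranged from 9147018 to 11194705 counts, and the 12032 genes whose counts averaged 10 or more per library were tested. Counts were scaled with TMM factors, which hold the bulk of genes level, and a slope in log2 units per h was fitted to each gene with edgeR's quasi-likelihood test, with Benjamini-Hochberg adjustment over all genes. MYC, a gene with a short-lived mRNA, fell from 134 ± 11.5 to 8.36 ± 2.75 CPM (counts per 1000000 counts, TMM-scaled), with a slope of -1.12 ± 0.101 (SE; adjusted p = 9.87e-08), a fall in the direction that the time labels give. Ewing sarcoma markers were present (NR0B1, NKX2-2, STEAP1, PRKCB and CCND1 above 1 CPM, summed 1850 to 2230 CPM, CD99 listed at 0). None of 5 endothelial or 4 leukocyte markers reached 1 CPM, and of 3 epithelial markers only KRT18 did. In these bulk libraries a smaller share of cells in S phase and less histone mRNA per cell cannot be told apart. Of 20 S-phase genes outside the histones, 6 fell and 8 rose, with a median slope of 0.032, against 32.1% of all genes falling and 30.7% rising.

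Histone mRNAs of the replication-dependent class were then followed over the 4 h without transcription. None of the 7 tested HIST genes fell by edgeR, 2 rose (HIST1H2BK and HIST1H1C) and 5 did not pass the threshold, whereas 32.1% of all genes fell and 30.7% rose. All 7 slopes were above 0 on this scale, 0 fell and 3 rose at an unadjusted p below 0.05, and DESeq2's Wald test gave 0 falling and 2 rising. No shares of all genes are given for these further counts, which are therefore not read as a result. The median slope was 0.095 log2 units per h, against 0.0093 over all genes, which is also above 0. These 7 are the HIST genes with enough counts in poly(A) libraries, too few to read the 0 against the background as a property of the class, and nothing was tested for the other 63.

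HIST1H2BK stood at 23.7, 28.1 and 24.6 CPM at 0 h, 27.3, 25.4 and 23.8 at 1 h, 29.4, 27.7 and 27.6 at 2 h, and 41.3, 37.2 and 32.5 at 4 h (replicates 1 to 3). The 4 h libraries all lay above the 0 h libraries, and the 1 h libraries overlapped those of 0 h. Its slope was 0.14 ± 0.025 (SE; edgeR adjusted p = 0.000113), and the mean at 4 h was 145% of that at 0 h. With GAPDH and ACTB as the reference instead, its slope was 0.0035 (adjusted p = 0.911).

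HIST1H1C, a linker histone gene, stood at 3.34, 4.24 and 3.19 CPM at 0 h, 4.59, 3.83 and 2.72 at 1 h, 5.46, 4.05 and 5.03 at 2 h, and 6.86, 5.80 and 3.92 at 4 h. The 0 h and 4 h libraries overlapped through replicate 3. Its slope was 0.17 ± 0.056 (edgeR adjusted p = 0.0158), but the call was lost without replicate 1 (adjusted p = 0.147) and without replicate 2 (adjusted p = 0.0629), with library totals (0.056) and with the GAPDH and ACTB reference (0.67). The other 5 genes had a mean of 16.8 to 58.0 counts per library and slopes from 0.039 for HIST1H2AC to 0.16 for HIST1H2BC. With the replicate number as a block, since the numbers pair the libraries, HIST1H2BC (adjusted p = 0.0329) and HIST1H2BD (0.045) also rose, making 4 of 7, against 36.2% of all genes in that fit, and without replicate 1 HIST3H2A did (0.0297). HIST2H2BE, with its internal stem-loop, had a slope of 0.047 ± 0.070 (adjusted p = 0.577).

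**Figure D3:**
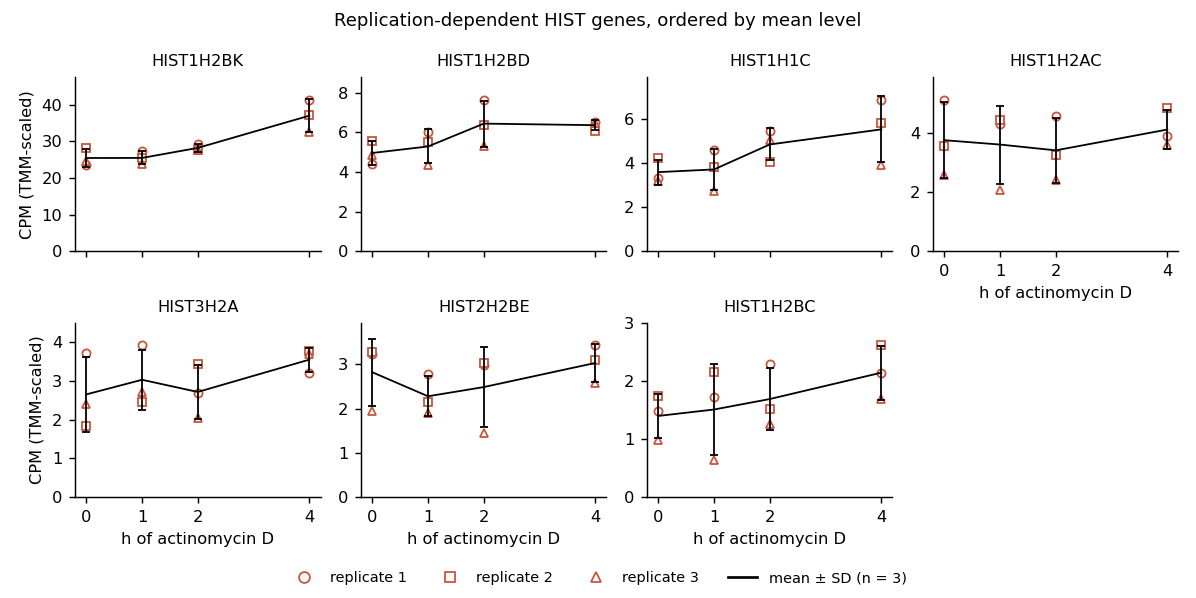
Time courses of the 7 tested HIST genes in TMM-scaled CPM against h of actinomycin D; symbols are the 3 replicates, lines join means and bars are SD (n = 3). HIST1H2BK rises to 37.0 CPM at 4 h on this scale, although its slope was 0.0035 when scaled to GAPDH plus ACTB, and in HIST1H2AC and HIST2H2BE the spread between replicates is larger than the difference between 0 and 4 h.

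The sum over all 70 HIST genes was 50.2 ± 4.60 CPM at 0 h, 49.0 ± 7.27 at 1 h, 55.3 ± 6.79 at 2 h and 68.2 ± 7.78 at 4 h (TMM-scaled, n = 3 each). The sum over the replacement genes was 1924 ± 43.7, 1885 ± 12.5, 2037 ± 16.1 and 2102 ± 27.1 CPM at the same times. The ratio of the replacement sum to the HIST sum, which no scaling affects, was 38.5 ± 3.33 at 0 h, 39.0 ± 5.90 at 1 h, 37.2 ± 4.86 at 2 h and 31.1 ± 3.35 at 4 h. At 4 h its libraries ranged from 28.8 to 34.9 and at 0 h from 36.5 to 42.3, without overlap. HIST1H2BK gives most of the HIST sum, and no test was made of these sums.

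Replacement variants moved in both directions. Of 9 tested genes, 3 fell (H1F0, H2AFX and H3F3B), 4 rose (H2AFY, H2AFV, H2AFJ and H1FX) and 2 did not pass the threshold (H2AFY2 and H2AFZ), with a median slope of 0.050. Among 9 genes these counts, from the fit without a block, lie near the shares of all genes given above. With the replicate block H2AFY2 and H2AFZ also rose (edgeR adjusted p = 0.0024 and 0.0163), where 36.2% of all genes rose. With GAPDH and ACTB as the reference the same 3 fell together with H2AFY2 and H2AFZ, and none rose, against 64.2% and 0.931% of all genes. At 1 h no replacement or HIST gene differed from 0 h by edgeR, against 2.24% of all genes lower and 0.349% higher. At an unadjusted p below 0.05 (edgeR) the count at 1 h was also 0 in either class. At 2 h H2AFV and H2AFY were higher, against 10.8% of all genes, and no replacement gene was lower, against 19.4%. At an unadjusted p below 0.05 (edgeR), 2 replacement genes were lower at 2 h and 3 were higher. No share of all genes is given for the unadjusted counts. At 4 h 3 of 9 were lower and 4 were higher, and 0 and 2 of 7 HIST genes, against 31.6% and 28.7% of all genes. With the replicate block 6 replacement genes were higher at 4 h, with H2AFY2 (adjusted p = 0.000196) and H2AFZ (adjusted p = 0.00466) added, against 36.8% of all genes.

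H2AFY had the smallest standard error among the members. Its level was 298, 307 and 315 CPM at 0 h, 322, 318 and 329 at 1 h, 352, 363 and 367 at 2 h, and 426, 422 and 443 at 4 h. Each time point lay above the one before it in all libraries, and the slope was 0.13 ± 0.011 (edgeR adjusted p = 9.30e-08) on the TMM scale but -0.012 (adjusted p = 0.641) against GAPDH and ACTB. H2AFY2, its paralog, stood at 119, 130 and 133 CPM at 0 h and 133, 149 and 156 at 4 h, so that the highest 0 h library and the lowest 4 h library were nearly equal, and all other time points overlapped. Its slope was 0.050 ± 0.024 (adjusted p = 0.0756), and it passed with the replicate block (adjusted p = 0.0024).

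H2AFZ had the slope nearest to 0 among the replacement variants on the TMM scale, but not against GAPDH and ACTB, where H2AFJ did. It stood at 853, 872 and 827 CPM at 0 h, 851, 803 and 791 at 1 h, 916, 905 and 899 at 2 h, and 944, 906 and 868 at 4 h. The 0 h and 4 h libraries overlapped. Its slope was 0.031 ± 0.014 (edgeR adjusted p = 0.0596; 0.0163 with the replicate block), and -0.11 (adjusted p = 2.38e-05) against GAPDH and ACTB. H2AFV rose from 137, 145 and 136 CPM at 0 h to 176, 178 and 175 at 4 h, without overlap, with a slope of 0.094 ± 0.015 (adjusted p = 4.07e-05) on the TMM scale and -0.043 against GAPDH and ACTB.

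H3F3B fell under every scaling tried. It stood at 384, 426 and 384 CPM at 0 h, 371, 400 and 360 at 1 h, 364, 373 and 347 at 2 h, and 342, 355 and 313 at 4 h. The 4 h libraries all lay below those of 0 h, with 84.7% of the 0 h mean left. The slope was -0.059 ± 0.015 (edgeR adjusted p = 0.0025) and -0.20 (adjusted p = 2.61e-08) against GAPDH and ACTB. From 0 to 2 h alone the slope was -0.059 and did not pass (adjusted p = 0.171).

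H2AFX, the replacement gene with both a stem-loop and a poly(A) signal, stood at 42.7, 40.9 and 50.2 CPM at 0 h, 39.9, 38.7 and 41.9 at 1 h, 40.9, 38.1 and 38.4 at 2 h, and 35.4, 35.7 and 38.8 at 4 h. All 4 h libraries lay below all 0 h libraries. The slope was -0.067 ± 0.021 (edgeR adjusted p = 0.0096), without replicate 1 it was -0.069 (adjusted p = 0.0539), and without the 0 h libraries -0.049 (adjusted p = 0.113). H2AFJ, an H2A variant of mammals, had 7.37, 6.07 and 6.65 CPM at 0 h and 8.05, 10.8 and 9.96 at 4 h, without overlap. Its slope was 0.15 ± 0.038 (adjusted p = 0.0033) and lost its call without replicate 2 (adjusted p = 0.084) and against GAPDH and ACTB (slope 0.0085, adjusted p = 0.884).

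The linker histone genes went opposite ways on the TMM scale. H1F0, a linker histone of slowly dividing and differentiated cells, fell from 6.19, 5.20 and 6.65 CPM at 0 h to 4.73, 4.06 and 4.14 at 4 h, without overlap. Its slope was -0.12 ± 0.043 (edgeR adjusted p = 0.0284), and the call was lost without any one of the replicates (adjusted p from 0.0629 to 0.0988). H1FX had 43.6, 39.7 and 48.7 CPM at 0 h and 54.1, 49.4 and 62.2 at 4 h, just without overlap. Its slope was 0.087 ± 0.026 (adjusted p = 0.0091; 0.0659 without replicate 1). With library totals it was 0.048 (adjusted p = 0.163), and against GAPDH and ACTB -0.051 (adjusted p = 0.188). The antisense RNA H1FX-AS1, the only tested member outside both classes, had a mean of 27.3 counts per library and a slope of 0.14 ± 0.073 (adjusted p = 0.116). The strand setting of the counting is not given, so reads of the overlapping parts of such pairs may not be told apart.

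**Figure D4:**
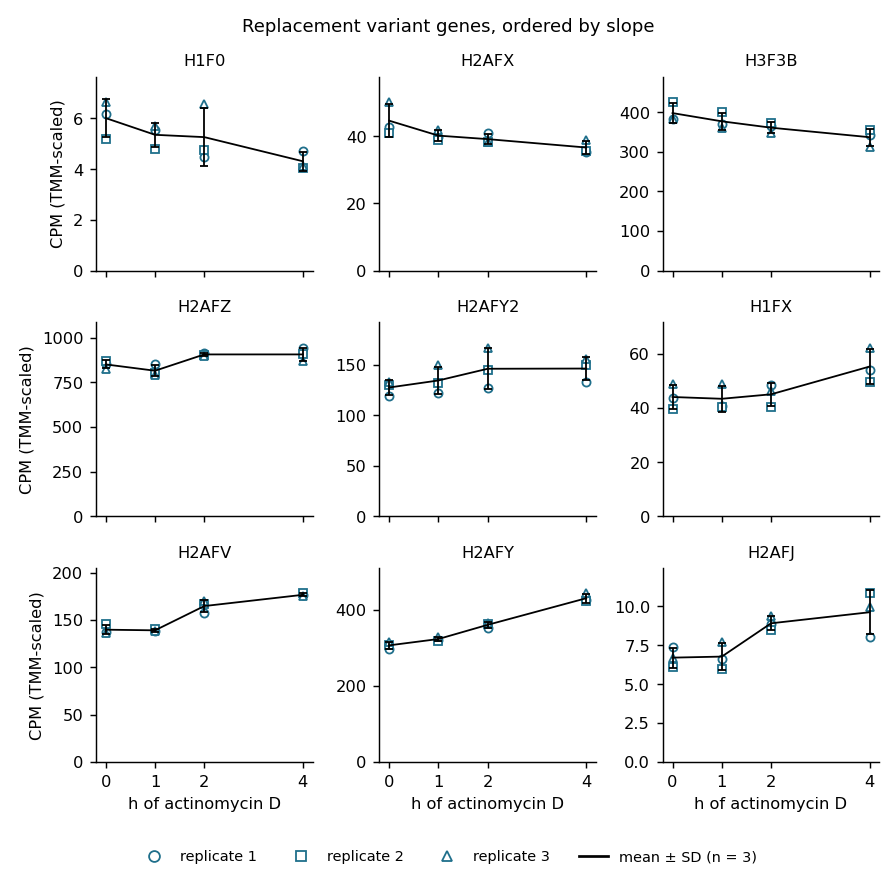
Time courses of the 9 tested replacement variants in TMM-scaled CPM against h of actinomycin D, ordered by slope from H1F0 to H2AFJ; symbols are the 3 replicates, lines join means and bars are SD (n = 3). H1F0, H2AFX and H3F3B decline, H2AFZ goes from 850 to 906 CPM, and H2AFY climbs from 307 to 430 CPM on this scale; scaled to GAPDH plus ACTB, the slope of H2AFY was -0.012 and that of H2AFZ -0.11 log2 units per h.

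Related variants were also set against each other inside each library, which needs no scaling. The 4 pairs were chosen after the slopes of their members were seen, so the ratios are given as a description with no test. The ratio of H2AFZ to H2AFV counts was 6.09 ± 0.111 at 0 h, 5.87 ± 0.252 at 1 h, 5.51 ± 0.262 at 2 h and 5.14 ± 0.205 at 4 h (SD, n = 3). The 4 h ratios, 4.96 to 5.36, lay below the 0 h ratios, 6.00 to 6.22. The ratio of H2AFY to H2AFY2 was 2.41 ± 0.0851 at 0 h and 2.96 ± 0.207 at 4 h. The ratio of H1FX to H1F0 was 7.33 ± 0.291 at 0 h and 12.9 ± 1.90 at 4 h, and that of H2AFJ to H2AFX was 0.151 ± 0.0201 and 0.263 ± 0.0384. A ratio does not say which member of a pair changed.

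The scaling set the direction of most members. GAPDH and ACTB themselves had slopes of 0.15 and 0.12 under TMM. With both as the reference, the median slope of all genes moved from 0.0093 to -0.13, and 7729 genes fell while 112 rose, against 3859 and 3694 under TMM. The median HIST slope became -0.041 and the median replacement slope -0.087. Of the 7 HIST genes, none passed the threshold in either direction on that scale. Under TMM, H1F0, H2AFX and H3F3B lay below the median of all genes, and the other 6 replacement genes and all 7 HIST genes above it. The change of reference moved all slopes by nearly the same amount. These positions were therefore kept by construction, and the GAPDH and ACTB reference is no separate test of them.

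**Figure D5:**
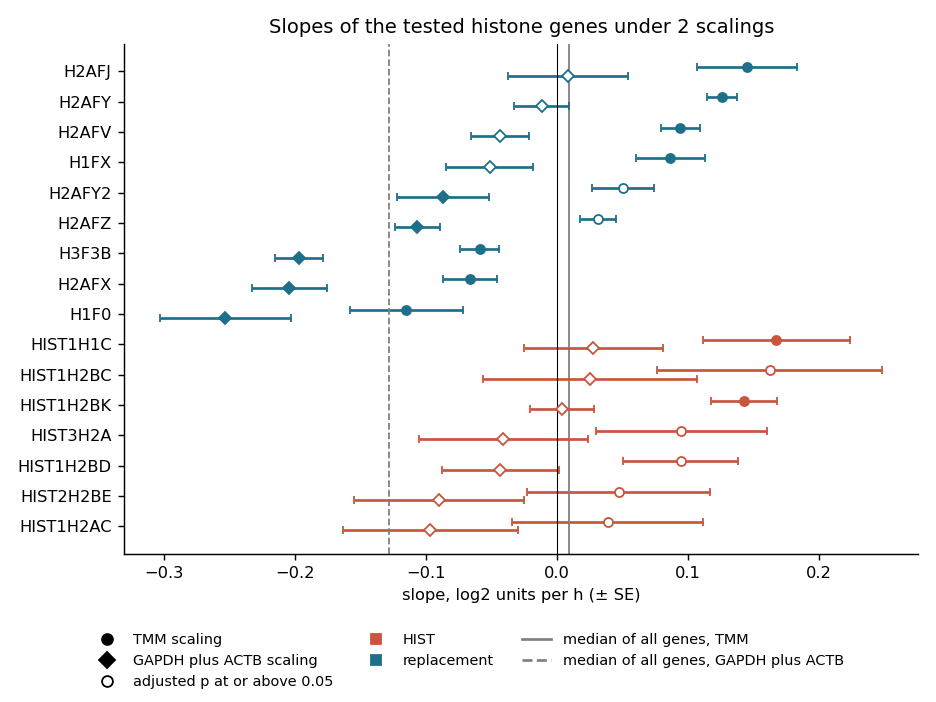
Slopes in log2 units per h (± SE) of the 16 tested coding histone genes under TMM scaling (circles) and scaling to GAPDH plus ACTB (diamonds); open symbols did not pass an adjusted p of 0.05 and grey lines mark the median of all genes, 0.0093 and -0.13. Every point moves left under the second scaling by nearly the same amount as the median of all genes. Positions relative to the median are thus kept by construction, with H1F0, H2AFX and H3F3B to its left and the other members to its right.

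Genes listed for the transcription, 3′ end processing and decay of histone mRNAs moved in both directions, with some steep falls. Not all of them act on the stem-loop end. In a list of 41 genes for histone mRNA transcription, 3′ end processing and decay, all of which were tested, 19 fell, 12 rose and 10 did not pass, with a median slope of -0.029, against 32.1% and 30.7% of all genes and a median of 0.0093. SLBP, the protein that binds the stem-loop, fell from 114 ± 11.3 to 80.3 ± 3.20 CPM, with a slope of -0.12 ± 0.018. NPAT, the activator of histone gene transcription, fell from 46.9 ± 2.55 to 15.5 ± 2.43 CPM, with a slope of -0.42 ± 0.040. ZNF473, the U7 snRNP partner that takes part in stem-loop cleavage, kept 26.1% of its 0 h level at 4 h. The steepest falls were those of CLP1, with 14.7% left, and CSTF2T, with 20.8%, which take part in 3′ end formation with PCF11, with 32.2% left.

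The decay factors differed among themselves. ERI1, the exonuclease that trims the stem-loop, fell from 61.7 ± 1.18 to 45.7 ± 2.36 CPM (slope -0.10 ± 0.017). UPF1, a helicase required for histone mRNA decay when replication stops, rose from 170 ± 9.53 to 220 ± 17.5 CPM under TMM (slope 0.091 ± 0.019) and fell against GAPDH and ACTB (slope -0.046, adjusted p = 0.048). With that reference 34 of the 41 fell and none rose, against 64.2% and 0.931% of all genes.

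Histone chaperones, which carry histones to DNA, were listed with other genes linked to them, such as kinases and remodellers (here the chaperone genes). These also moved in both directions. Of 37 listed genes, 10 fell, 16 rose and 11 did not pass, with a median slope of 0.018, against the same shares of all genes. With GAPDH and ACTB as the reference 31 fell and none rose, where 64.2% of all genes fell. The 4 steepest slopes past the threshold were all falls, although more of the list rose than fell under TMM. TLK2, a kinase that acts on the chaperone ASF1, kept 21.2% of its 0 h level at 4 h and TLK1, its paralog, 50.9%. HJURP, the chaperone of the centromeric H3, fell from 93.7 ± 5.20 to 22.9 ± 2.75 CPM. INO80, the ATPase of a remodeller linked to H2A.Z, kept 36.4%.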

How the data were processed

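The authors deposited raw counts, whole numbers of reads per gene symbol, for 12 libraries made with a poly(A)-selecting, stranded mRNA kit. The submitters' processing notes name hg19, FastQC and STAR. The counter, the annotation, the treatment of reads with several matches and the strand setting are not given in the sources used here. Columns were assigned through the sample titles (0 left over). The table holds no rows other than genes, and 7397 of its 26334 symbols had no count.

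Members were matched to current symbols through other names in the RefSeq gene table (91 of 91; for 5 symbols listed by several genes the gene listing fewest members was taken). Coordinates, transcripts and sequences are those of GENCODE version 44 on GRCh38, not the build of the files, which hold symbols only. Genes averaging 10 or more counts were kept, scaled with TMM and fitted with edgeR 4.0.16 in R 4.3.3 (glmQLFit and glmQLFTest), with time as a number or as 4 groups, without a block. Standard errors come from the F statistic. The fits were tested on simulated data. No pair of replicates was alike within sampling noise (chi-square over degrees of freedom, 3.07 to 8.15). The common biological coefficient of variation was 0.0905.

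Libraries with the same replicate number deviated together (r from 0.347 to 0.657 over 18 pairs, each best with its own number in 12 of 12 libraries; other numbers at most 0.0953), so the numbers pair the libraries. Named genes were all tested members, the 4 steepest called genes of each further list, SLBP, NPAT, ERI1 and UPF1, and MYC, GAPDH and ACTB. The members and lists were chosen with earlier results of these data known. Alternatives were other scalings, DESeq2 1.42.0, other filters, a replicate block, fewer replicates and fewer time points, and for the ratios fewer replicates, added after seeing the data.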

Additional observations from a re-analysis of the deposited data

How the results depend on the processing

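Depth limits the HIST genes: 63 of 70 lay below the count filter, and 6 of the 7 tested had a mean of 16.8 to 58.0 counts. With library totals 1 HIST gene rose (1 higher at 4 h), and 2 replacement genes were higher at 4 h. There 7 processing and decay genes and 8 chaperone genes rose, and the median slopes were 0.0555 (HIST) and 0.0112 (replacement). Over all 12032 genes 4702 fell and 2244 rose in that fit, against 3859 and 3694 in the main fit. The smaller number of rising genes was thus not particular to these lists. With GAPDH plus ACTB as the reference 0 HIST and 0 replacement genes rose or were higher at 4 h, 5 replacement genes fell and 5 were lower at 4 h, 34 processing and decay genes and 31 chaperone genes fell and 0 of either rose. The medians were -0.0411 and -0.0871, and slopes that changed sign were those of HIST1H2AC (-0.0968), HIST1H2BD (-0.0432), HIST2H2BE (-0.0901), HIST3H2A (-0.0411) and H1FX-AS1 (-0.00128), none past the threshold under either scaling, and of H1FX (-0.0514), H2AFV (-0.0435), H2AFY (-0.0118), H2AFY2 (-0.0871), H2AFZ (-0.107), UPF1 (-0.046) and ACTB (-0.0167); the reference itself contains ACTB. Without a filter beyond 1 count, which tests 57 HIST genes, the medians were 0.0785 and 0.0384, and of the added HIST genes HIST2H2AC passed (adjusted p = 0.0348). With the replicate block, which fits the pairing, 4 HIST genes rose and the HIST median was 0.0989; beyond the 4 genes given above it changed no slope call of a named gene. With 0, 1 and 2 h only, 0 HIST genes rose, 0 replacement genes fell, 4 processing and decay and 8 chaperone genes rose, and the HIST median was 0.0853. With 1, 2 and 4 h only, 1 HIST gene rose, 1 replacement gene fell, and the medians were 0.134 and 0.039. The HIST share at 0 h was 0.00463% with the 7 genes of the filter only. Leaving out 1 replicate at a time gave 1 to 2 HIST genes rising and 1 to 2 higher at 4 h, 1 to 2 replacement genes falling and 1 to 2 lower at 4 h, 9 to 15 chaperone genes rising, and HIST medians from 0.0747 to 0.124. Shares of all genes are not given for the fits with fewer time points or replicates. Their counts are therefore no result about the lists. Beyond the construction of each alternative the cause was not tested. DESeq2's size factors, its Wald test and a mean of at least 30 counts changed no sign or call of a slope among the named genes they fitted; at 4 h 2 replacement genes were lower by the Wald test and 2 without a filter, against 3. The ratios of related variants changed in the same direction in all 3 replicates, so leaving out a replicate could not change their sign.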
